A study of Mus musculus with 18 samples.

Results

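The Foxa2 promoter was compared with 9 developmental regulators that lie far from it on the same mouse chromosome, Pax6, Meis2, Wt1, Dlx1, Dlx2, Lhx2, Lmx1b, Barhl1 and Gata3, by the share of its captured contacts that fell on them in 3 cell types. The 9 genes were chosen by the Foxa2 promoter's reads on them in these same libraries, and they were taken from 1816 protein-coding genes of chr2 whose windows lie beyond 2 Mb of Foxa2. A gene's window was its body in mm9 plus 10 kb to each side, and a DpnII fragment that overlapped a window was counted in it. The 9 windows held 1470 of 431682 DpnII fragments beyond 2 Mb, or 0.346% of that length. A read was seen in 283 of these fragments in at least 1 library, of 31565 fragments with a read beyond 2 Mb.

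Contacts were measured by NG Capture-C, in which crosslinked chromatin is cut with DpnII and ligated, and ligation products of chosen promoters are pulled down with oligonucleotides and sequenced. Each of 3 groups had 3 libraries: embryonic stem cells (ESC) of strain 129/Sv//EV at day 0, definitive endoderm (DE) at day 5 from ESC of the same strain, and erythrocytes of strain C57BL/6. The labels give day 5 for the erythrocytes too. DE came from embryoid bodies formed without LIF and moved on day 2 into medium with ActivinA and EGF, and erythrocytes came from dissociated spleens of mice treated with phenylhydrazine, so in erythrocytes the strain cannot be told apart from the cell type. How pure the DE or erythrocyte cells were was not measured in these data, and the replicates are described as biological, while the culture or animal behind each is not given in the sources used here.

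Foxa2, whose gene spans chr2:147868613-147872705 on the minus strand, encodes a forkhead transcription factor needed for definitive endoderm and the axial midline, and it becomes active as endoderm forms. In ESC the promoters of many such regulators are CpG-rich, silent and bound by Polycomb group proteins, and Polycomb-bound promoters are known to meet in the nucleus over long distances. A capture read comes from a ligation between the promoter and another fragment, and 1 ligation product can give reads on several neighbouring fragments. Read numbers reflect how often promoter and fragment were near each other over a population of cells, and not whether either gene was transcribed. Of the 9 genes, Pax6 encodes a paired-box factor of eye, forebrain and pancreas, Meis2 and the distal-less genes Dlx1 and Dlx2 homeodomain factors, and Wt1 a zinc finger factor of kidney and gonad. Lhx2 and Lmx1b encode LIM homeodomain factors, Barhl1 a homeodomain factor of the nervous system, and Gata3 a zinc finger factor of T cells, kidney and inner ear.

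All 9 lie on the same side of Foxa2, with lower coordinates. Meis2 was the nearest, at 32.0 Mb, followed by Pax6 at 42.3 Mb, Wt1 at 42.9 Mb and the adjacent Dlx1 and Dlx2 at 76.5 Mb. Lhx2, Lmx1b, Barhl1 and Gata3 lay 110, 114, 119 and 138 Mb away. The windows of Dlx1 and Dlx2 overlap and share fragments, and reads in these were counted once in the pool. The Pax6 window also holds part of Elp4, the Barhl1 window part of Ddx31 and the Dlx1 window part of Metap1d, and reads there could not be assigned to 1 gene.

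The fragments below carried the most ESC reads among those of at most 300 bases in an intron or outside the gene, 1 for each of the 4 windows that had one with at least 2 ESC reads, and they show what a contact was at the level of sequence. The last is the stretch of 300 bases with most CpG in a longer Pax6 intron fragment. They are given on the plus strand of mm9 with CpG dinucleotides in capitals. No read of any of these fragments was seen in DE or erythrocytes, but they were picked on few ESC reads, so nothing is read from this. A Pax6 fragment with exon sequence that had 4 ESC reads also had 2 DE reads.
Pax6 intron, chr2:105527621-105527663, 3 ESC reads: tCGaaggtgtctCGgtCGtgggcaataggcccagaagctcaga
Meis2 intron, chr2:115886676-115886736, 3 ESC reads: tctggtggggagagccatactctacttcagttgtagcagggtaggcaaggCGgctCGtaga
Wt1 intron, chr2:104969766-104969815, 2 ESC reads: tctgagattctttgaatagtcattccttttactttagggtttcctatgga
Upstream of Dlx1, chr2:71363841-71363919, 2 ESC reads: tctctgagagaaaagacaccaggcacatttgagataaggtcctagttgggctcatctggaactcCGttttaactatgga
Pax6 intron, chr2:105529089-105529388, 4 ESC reads in the whole fragment: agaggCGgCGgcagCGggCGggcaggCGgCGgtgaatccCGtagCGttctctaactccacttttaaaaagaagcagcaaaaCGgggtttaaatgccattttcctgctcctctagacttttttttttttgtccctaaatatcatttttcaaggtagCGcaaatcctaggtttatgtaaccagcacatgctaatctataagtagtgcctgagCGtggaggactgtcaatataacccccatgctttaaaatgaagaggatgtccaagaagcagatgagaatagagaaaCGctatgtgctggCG
The Meis2, Wt1 and Dlx1 fragments lay 4.87, 3.10 and 2.29 kb from the start sites of their genes, and the Pax6 ones 18.6 and 19.9 kb downstream. All 3 reads of the shorter Pax6 fragment came from ESC library 2, whereas the longer had 1 read from library 1 and 3 from library 2. The fragments adjoining the shorter one had 2 and 3 reads of library 2, which can come from the same ligation products. Single fragments thus held at most 4 ESC reads, and the comparisons below rest on sums over windows.

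The Foxa2 columns held between 5005 and 46823 reads per library, of which 42.8 to 79.4% were on chr2. Reads on chr2 beyond 2 Mb, termed far reads, numbered 7783 in ESC, 23911 in DE and 8643 in erythrocytes over 3 libraries each, and made up 26.0 ± 1.05% (SD, n = 3), 34.4 ± 0.888% and 45.9 ± 11.0% of the chr2 reads. Erythrocyte libraries differed among themselves more than the others did, with a far share of 33.5% in library 3 and 54.2% in library 1. The sum over windows was therefore set against the far reads of its own library. Reads carry no molecular identifiers, and several can come from 1 ligation product. The intervals given cover only the counting error of reads taken as independent, and not differences between libraries, so they can be too narrow.

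The 9 windows took a larger share of far reads in ESC than in DE or erythrocytes. In ESC they held 68 of 2264, 90 of 3552 and 45 of 1967 far reads, or 3.00, 2.53 and 2.29%. In DE they held 47 of 7881, 71 of 10278 and 44 of 5752, or 0.596, 0.691 and 0.765%. In erythrocytes they held 27 of 5443, 10 of 1989 and 5 of 1211, or 0.496, 0.503 and 0.413%. Every ESC library was above every DE library, and every DE library above every erythrocyte library. The means were 2.61 ± 0.364%, 0.684 ± 0.0845% and 0.471 ± 0.0501% (SD, n = 3), so the share was 3.81-fold lower in DE and 5.54-fold lower in erythrocytes than in ESC. Since the genes were chosen for these contacts, the differences are a description and were not tested. Over all chr2 reads in place of far reads, DE was at 0.349 and erythrocytes at 0.325 of the ESC share, as the far share of chr2 reads itself was lowest in ESC.

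**Figure D1:**
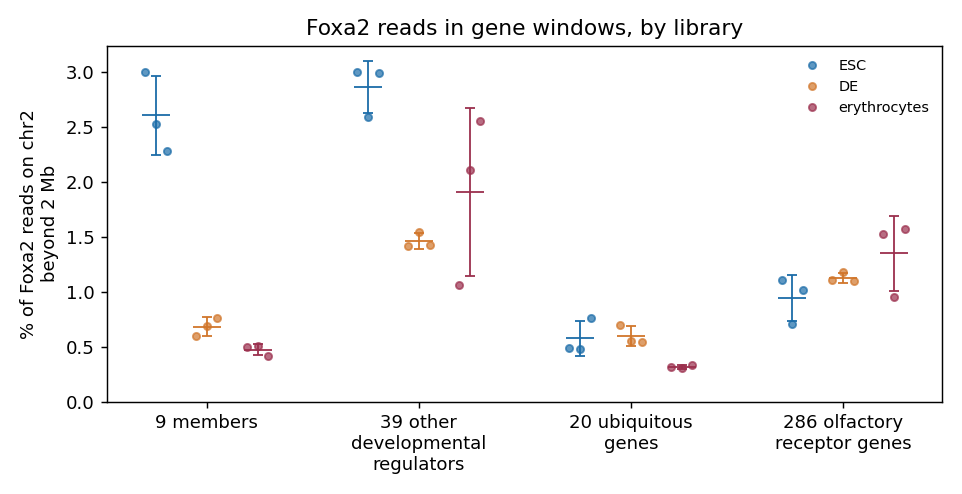
Share of far Foxa2 reads (% of reads on chr2 beyond 2 Mb) in 4 lists of gene windows; points are libraries, bars the mean with SD over 3 libraries of ESC, DE and erythrocytes. The 9 members were between 2.29 and 3.00% in ESC and at most 0.765% in every other library.

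Reads per kb in the windows were also set against the 500 kb to each side of them in the same library, so that distance from Foxa2 was alike. The ratio was 6.74, 4.49 and 4.35 in the 3 ESC libraries, 1.93, 1.97 and 2.35 in DE, and 2.80, 1.78 and 1.88 in erythrocytes. ESC libraries were above all others, while DE and erythrocyte libraries overlapped. Windows thus held more reads per kb than their surroundings in every library, by 5.19 ± 1.34 in ESC, 2.08 ± 0.230 in DE and 2.15 ± 0.559 in erythrocytes (SD, n = 3). Without Pax6 the ratios were 3.49 ± 0.917, 1.66 ± 0.155 and 2.33 ± 0.505, and ESC and erythrocyte libraries overlapped. Without Meis2 the erythrocyte ratio was 1.32, whereas the ESC ratio was 9.99.

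The pool was made of few genes. Pax6 had 40.9% of the pooled ESC reads, Meis2 35.0% and Wt1 13.8%. In DE Meis2 had 42.6%, Pax6 31.5% and Wt1 16.7%. In erythrocytes Meis2 had 73.8% and no other gene more than 7.14%. Meis2 had more reads than Pax6 in every DE and erythrocyte library. In ESC the libraries of the genes overlapped, with 16 reads for each in library 3, so no order is read from their ESC shares. The Meis2 window is also the longer. Per kb of window every Pax6 library was above every Meis2 library in ESC and in DE. In erythrocytes the pooled value per kb was higher for Meis2, and the libraries overlapped.

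Pax6 had 27, 40 and 16 reads in the ESC libraries, 15, 22 and 14 in DE, and 2, 0 and 1 in erythrocytes. Per 100000 far reads these were 1193, 1126 and 813 in ESC, 190, 214 and 243 in DE, and 36.7, 0 and 82.6 in erythrocytes. The 3 cell types did not overlap. Pooled over libraries, Pax6 was 5.00-fold lower in DE (95% exact interval 3.49 to 7.23) and 30.7-fold lower in erythrocytes (10.2 to 152) than in ESC. Over its flanks the Pax6 window had 18.6 times the reads per kb in ESC, 4.58 in DE and 1.25 in erythrocytes, where the pooled value rests on 3 reads.

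Meis2 had 23, 32 and 16 reads in ESC, 24, 30 and 15 in DE, and 19, 9 and 3 in erythrocytes. Per 100000 far reads these were 1016, 901 and 813 in ESC, 305, 292 and 261 in DE, and 349, 452 and 248 in erythrocytes. ESC libraries were above all others, and DE and erythrocytes overlapped. Meis2 was 3.16-fold lower in DE (2.24 to 4.47) and 2.54-fold lower in erythrocytes (1.65 to 4.01) than in ESC, and erythrocytes over DE were at 1.24 (0.786 to 1.93). Its ratio to the flanks was 2.66 in ESC, 1.88 in DE and 2.84 in erythrocytes.

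Wt1 had 11, 9 and 8 reads in ESC, 4, 10 and 13 in DE, and 0, 1 and 0 in erythrocytes. Per 100000 far reads these were 486, 253 and 407 in ESC and 50.8, 97.3 and 226 in DE, and the 1 erythrocyte read stood at 50.3. The lowest ESC library was close to the highest DE library. Wt1 was 3.19-fold lower in DE than in ESC (1.81 to 5.62), and its ratio to the flanks was 4.85 in ESC, 1.66 in DE and 0.415 in erythrocytes.

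Dlx1 had 2, 4 and 3 reads in ESC, 1, 3 and 1 in DE, and 1, 0 and 0 in erythrocytes. Its mean was 118 ± 32.4 per 100000 far reads in ESC and 19.8 ± 8.50 in DE (SD, n = 3). Dlx2 had 2, 3 and 2 reads in ESC, 0, 2 and 1 in DE and none in erythrocytes, where 0 of 8643 far reads allows up to 34.7 per 100000. Dlx1 was 5.53-fold lower in DE than in ESC (1.66 to 21.0) and Dlx2 7.17-fold lower (1.64 to 43.0). These intervals rest on 3 to 9 reads a group, and the genes share fragments.

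The 4 most distant genes had too few reads to be ordered between cell types. Lhx2 had 4 reads in ESC, 3 in DE and 2 in erythrocytes, and Lmx1b had 2, 6 and 1. Barhl1 had 1, 0 and 1, and Gata3 had 1, 1 and 2. For each of the 4 the libraries of the cell types overlapped, and the interval of the DE over ESC ratio included 1 (0.0358 to 1.44 for Lhx2 and 0.175 to 9.89 for Lmx1b).

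**Figure D2:**
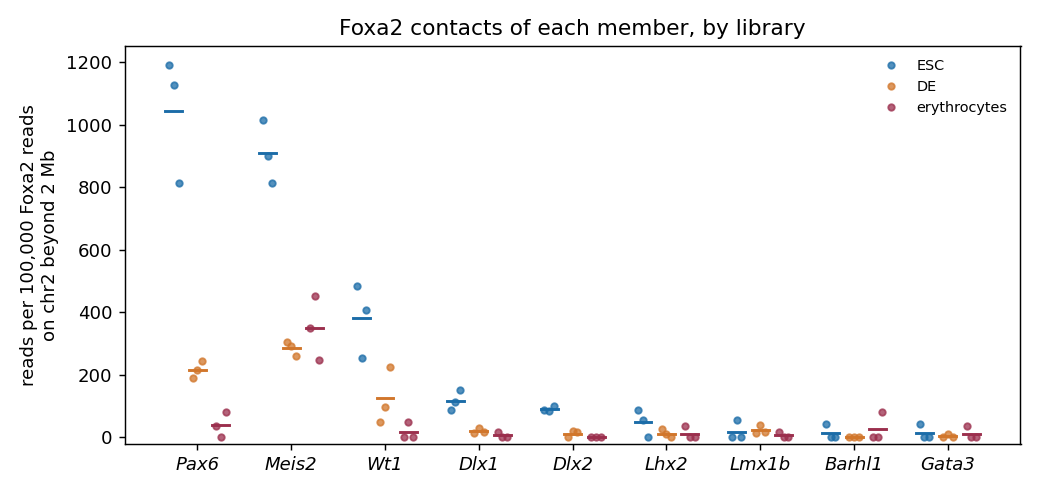
Reads of each gene's window per 100000 far Foxa2 reads; points are libraries and short lines means of 3 libraries per cell type. Pax6, Meis2 and Wt1 account for most reads, and in ESC Pax6 and Meis2 lie between 813 and 1193.

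Per kb of window the order in ESC was Pax6, Wt1, Dlx1, Meis2, Dlx2, Lhx2, Barhl1, Lmx1b and Gata3, at 19.7, 5.36, 4.47, 4.09, 3.85, 1.02, 0.443, 0.258 and 0.243 reads per kb per 100000 far reads. Pax6 libraries (15.0 to 22.0) did not overlap those of Wt1 (3.78 to 7.24). Wt1, Dlx1, Meis2 and Dlx2 overlapped one another. Of the 1816 windows ranked on ESC reads per kb, Pax6 was number 2, Wt1 37, Dlx1 51, Meis2 59 and Dlx2 71, whereas Lhx2 was 428, Barhl1 836, Lmx1b 973 and Gata3 983. Among the 1611 windows beyond 10 Mb of Foxa2, the first 5 were at ranks 2, 16, 19, 22 and 30. The ranks use the ESC reads that also led to the choice of genes.

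**Figure D3:**
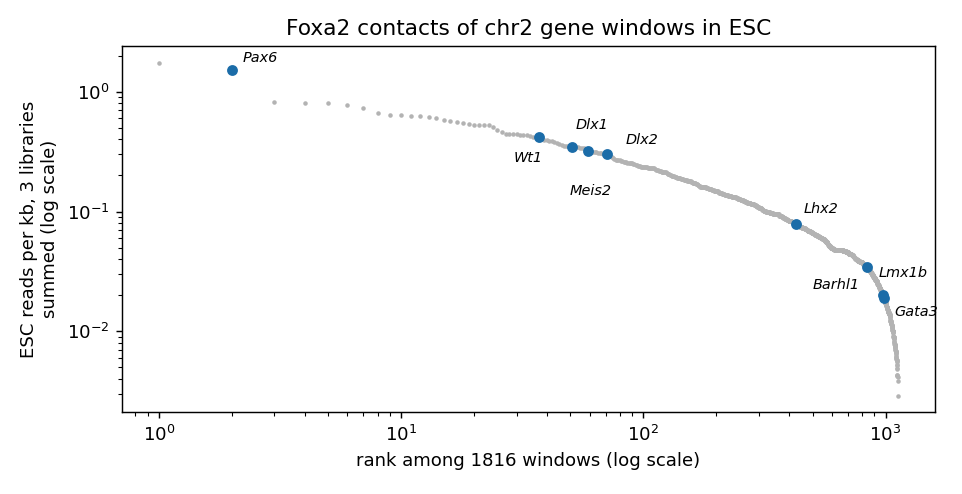
ESC reads per kb (3 libraries summed, log scale) of chr2 gene windows beyond 2 Mb of Foxa2 against their rank (log scale); grey points are windows with a read, blue circles the 9 members. Pax6 is second of 1816, 4 more members lie between ranks 37 and 71, and the other 4 lie beyond rank 400.

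The position of reads within the windows was then compared with the start sites. Within 10 kb of its start Meis2 had 26 of 71 ESC reads, 7 of 69 DE reads and 1 of 31 erythrocyte reads. Per kb this was 5.86 times the rest of the Meis2 window in ESC, 1.14 in DE and 0.338 in erythrocytes. Most Meis2 reads thus lay outside this stretch in every cell type. Pax6 had 39 of 83 ESC reads and 26 of 51 DE reads within 10 kb, or 1.52 and 1.78 times the rest per kb, and Wt1 had 15 of 28 and 12 of 27, or 2.72 and 1.88. Dlx1 and Dlx2, whose windows lie mostly within 10 kb of the start, had ratios of 1.03 and 1.00 in ESC. When windows were cut to 10 kb around the start, the pooled ratio to the flanks was 10.8 in ESC, 2.80 in DE and 1.58 in erythrocytes. The pooled share was then at 0.188 of ESC in DE and 0.0712 in erythrocytes.

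**Figure D4:**
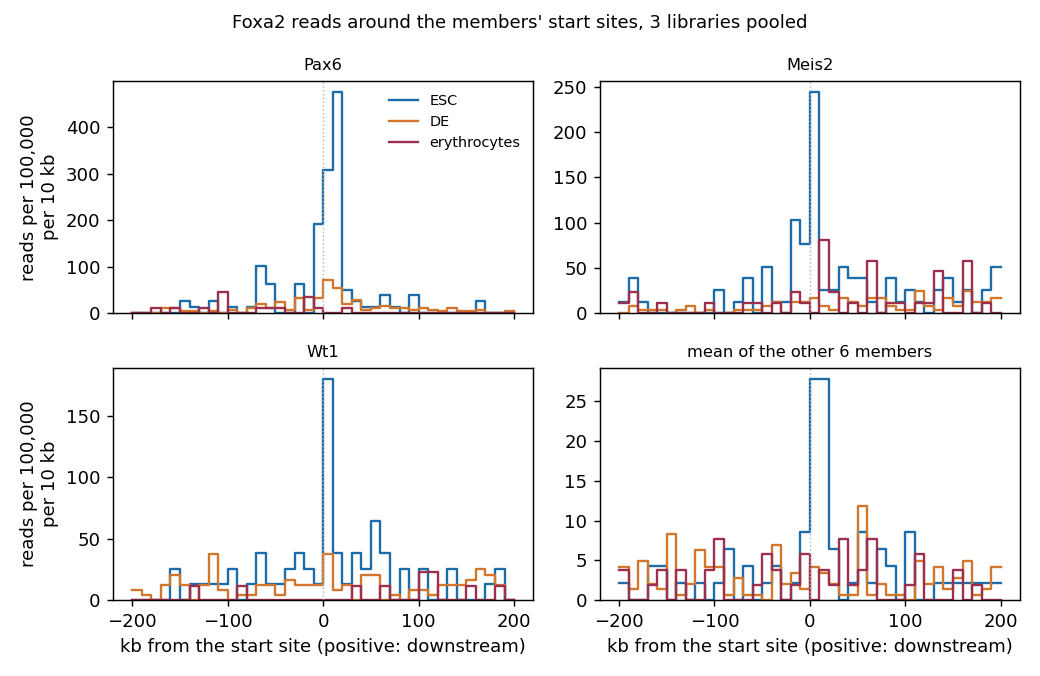
Foxa2 reads per 100000 far reads in 10 kb bins around the start sites of Pax6, Meis2 and Wt1 and the mean of the other 6 genes (Dlx1 and Dlx2 share bins), with 3 libraries pooled and genes oriented along transcription; y axes differ. ESC has its highest bin within 20 kb downstream of the start, with 244 per 100000 in the first downstream bin of Meis2 against 16.7 in DE and 0 in erythrocytes.

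CpG content was a sequence feature the choice of genes did not use. The 9 windows held 1.64 CpG per 100 bases, against 0.856 in all sequence beyond 2 Mb. Fragments with member reads held 2.10, 2.44 and 2.70 CpG per 100 bases in the ESC libraries, 2.15, 1.85 and 1.92 in DE, and 1.21, 0.764 and 1.51 in erythrocytes. ESC and DE libraries overlapped narrowly, and erythrocytes were below both. Fragments with at least 3 CpG per 100 bases, a limit set after the values were seen, were 225 of the 1470 in the windows, or 15.3%. They held 35.4 ± 5.41% of member reads in ESC, 21.5 ± 2.77% in DE and 9.14 ± 10.1% in erythrocytes (SD, n = 3), the last from 3 of 42 reads. Over all far reads the share in such fragments was 6.64 ± 0.327%, 3.88 ± 0.570% and 2.90 ± 0.189% (SD, n = 3), so it was highest in ESC there too. In RefSeq promoters of 300 bases (GRCm38.p6), the member with fewest CpG was Meis2 with 13 and that with most Lhx2 with 34, against a median of 8 over 27025 symbols. Wt1 was not matched. Of all symbols, 40.4% had at least as many CpG as Meis2, 32.1% as Pax6 and 8.62% as Lhx2.

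As a background, the same comparison was made for all windows with at least 10 reads in the libraries compared. Of 704 such windows 7.53% had every DE library below every ESC library and 11.6% had every DE library above. Of the 9 genes, 5 passed the minimum (Pax6, Meis2, Wt1, Dlx1 and Dlx2), and all 5 were in the lower group. In erythrocytes against ESC 26.0% of 289 windows were lower, with all 4 of the 9 genes that passed. In erythrocytes against DE 32.0% of 671 windows were lower, among them 2 of 3 (Pax6 and Wt1, not Meis2), and 4.92% were higher, with none of the 3. As the choice of genes used these contacts, nothing is read from their counts.

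By limma on log2 values of all windows, at a Benjamini-Hochberg adjusted p under 0.05, 1 window (0.142% of 704) was lower in DE than in ESC and none was higher, while 94 had an unadjusted p under 0.05. By edgeR's quasi-likelihood test and by DESeq2 4 windows passed the same threshold. In erythrocytes 28 windows (9.69% of 289) were lower and 4 (1.38%) higher than in ESC. In erythrocytes against DE 60 of 671 (8.94%) were lower and 3 (0.447%) higher. The median log2 change over all windows tested was 0.26 in DE and -0.65 in erythrocytes against ESC. The fits serve here as a background, and no call is given for the 9 genes, since their choice used the same reads, and in erythrocytes Pax6, Wt1 and Dlx1 had 3, 1 and 1 reads and reached the minimum through ESC. Calls in erythrocytes against ESC fell to 7, 2 and 14 without ESC library 1, 2 or 3 and to 19 without erythrocyte library 3. Calls against DE numbered 0 without any 1 DE library, and 157, 5 and 33 without erythrocyte library 1, 2 or 3. With the replicate number as a block the erythrocyte calls against ESC were 0 and those against DE 16.

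Whether other developmental regulators of chr2 behaved alike was asked of 39 genes outside the 9 windows, among them the Hoxd cluster, Alx4, Ovol2 and Hnf4a. This list was also chosen with earlier results of these data known, so its tests are not an independent check. The 39 genes took 3.00, 2.59 and 3.00% of far reads in ESC, 1.42, 1.55 and 1.43% in DE, and 1.07, 2.11 and 2.56% in erythrocytes. Every ESC library was above every library of DE and of erythrocytes, and DE and erythrocytes overlapped. The share was 1.96-fold lower in DE and 1.50-fold lower in erythrocytes than in ESC. By exact two-sided permutation over 3 against 3 libraries, p was 0.1 for both, the smallest this design can give, with adjusted p of 0.15 over 3 comparisons, and 0.4 for erythrocytes against DE. None passed 0.05. The ratio to the flanks was 2.57 ± 0.180 in ESC, 1.29 ± 0.0828 in DE and 1.14 ± 0.422 in erythrocytes (SD, n = 3). Over all chr2 reads the erythrocyte share was 0.0862 percentage points above ESC, with an exact p of 0.6, so the direction against ESC was not kept there. Without the Hoxd genes and Evx2 erythrocytes minus ESC was -0.486 percentage points with an exact p of 0.5, and over gene bodies alone -0.215 with an exact p of 0.7, so the erythrocyte libraries were not apart from ESC under these settings. DE minus ESC was -1.02 and -0.779 points under the same settings, with an exact p of 0.1 for each.

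Among these genes Hoxd10, Hoxd11 and Hoxd12, which encode homeodomain factors of limb and trunk patterning, had 16, 18 and 12 ESC reads, 8, 8 and 3 DE reads and none in erythrocytes. The 10 windows of Hoxd genes and Evx2, which overlap, together had 13, 13 and 9 reads in ESC, 11, 6 and 3 in DE, and 0 in erythrocytes. In the limma fit of erythrocytes against ESC 7 of 13 genes of this list passed, all lower, beside 9.69% of all windows. Among them were Hoxd3, Hoxd9, Hoxd10, Hoxd11, Hoxd12 and Alx4. Without ESC library 1, 2 or 3 the number of genes of this list that passed was 2, 1 and 3. Hoxd3, Hoxd9, Hoxd10, Hoxd11 and Hoxd12 reached the minimum of 10 reads through ESC alone, and Alx4 had 20 ESC reads and 1 in erythrocytes. With 0 reads the fitted fold depends on the value added before the logarithm. Nothing is therefore read from the direction of these calls.

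Ovol2, which encodes a zinc finger factor of epithelia and lies 3.71 Mb from Foxa2, had 11, 8 and 5 reads in ESC and 16, 33 and 19 in DE. Far reads numbered 7783 in ESC and 23911 in DE. Scaled to them, the log2 change of Ovol2 in the limma fit of DE against ESC was -0.117, and it did not pass. In DE against ESC 11 of the 22 genes with enough reads had every DE library below every ESC library and 2, Nr6a1 and Bmp7, every DE library above, beside the 7.53% and 11.6% of all windows. In erythrocytes 8 of 13 were below ESC and 2, Sall4 and Tshz2, above, beside 26.0% and 6.23%. Hoxd3, Hoxd9, Hoxd10, Hoxd11 and Hoxd12 were in both lower groups, and Hoxd13 in that of DE. Windows of these Hoxd genes overlap and share reads, so the counts are not of independent genes. The 3 highest other windows in ESC are given as reads not scaled to far reads. They were 5430405G05Rik with 25 ESC, 33 DE and 5 erythrocyte reads, and Bmp2, a ligand gene, with 25, 24 and 7. The third, Slc32a1, a vesicular transporter gene of inhibitory neurons, had 20, 18 and 8. None of these 3 passed in any comparison.

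A list of 20 ubiquitously expressed genes took 0.576 ± 0.162% of far reads in ESC, 0.597 ± 0.0876% in DE and 0.315 ± 0.0145% in erythrocytes (SD, n = 3). The 286 olfactory receptor genes took 0.942 ± 0.211%, 1.13 ± 0.0451% and 1.35 ± 0.342%. In neither list were the ESC libraries above those of DE, but for the ubiquitous genes the 3 erythrocyte libraries all lay below those of ESC, by 1.83-fold in the mean. The median window had 0.347 reads per kb per 100000 far reads in ESC over all 1816, and 3.85 over the 9 genes.

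The 9 windows were then measured from viewpoints on other chromosomes, which took no part in choosing them. These came from the same libraries, so they share any property of a library. From the promoters of Eomes and Lhx1, regulators of gastrulation and endoderm, the windows held 9 of 753, 11 of 1210 and 19 of 946 chr2 reads in ESC, or 1.20, 0.909 and 2.01%. In DE they held 17 of 2522, 13 of 3318 and 19 of 2155, or 0.674, 0.392 and 0.882%. In erythrocytes they held 19 of 2367, 1 of 182 and 2 of 850, or 0.803, 0.549 and 0.235%. Every ESC library was above all others, the closest pair being 0.909 and 0.882%. By exact permutation p was 0.1 for DE and for erythrocytes against ESC, the smallest 3 against 3 allows, and 0.2 after adjustment over 6 comparisons, so neither passed. Over gene bodies alone DE minus ESC was -0.479 percentage points with an exact p of 0.2, and at start sites -0.299 with 0.5. Erythrocytes minus ESC was -0.582 and -0.466 points, with an exact p of 0.2 for each. ESC libraries were thus not apart from the others under these settings. Of the 22 ESC reads from Lhx1, 13 came from library 3.

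From the promoters of Hba, Hbb and Slc25a37, globin and mitochondrial iron carrier genes of red cells, the windows held 6 of 1695, 10 of 2597 and 9 of 1942 chr2 reads in ESC, or 0.354, 0.385 and 0.463%. In DE the values were 0.0929, 0.398 and 0.347% and in erythrocytes 0.331, 0.264 and 0.239%. ESC and DE overlapped, with an exact p of 0.4, and erythrocytes were below ESC, with an exact p of 0.1 and an adjusted p of 0.2 from the permutation test. The direction of erythrocytes against ESC and DE changed under other ways of counting.

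Over their 500 kb flanks, the windows had 3.12 times the reads per kb from Eomes and Lhx1 in ESC (95% exact interval 2.14 to 4.44), 1.99 in DE (1.44 to 2.69) and 1.87 in erythrocytes (1.14 to 2.94). From the globin and Slc25a37 promoters the ratios were 1.12 (0.714 to 1.68), 0.713 (0.516 to 0.961) and 0.779 (0.531 to 1.11). From Foxa2 they were 5.01 (4.20 to 5.97), 2.05 (1.72 to 2.42) and 2.34 (1.63 to 3.30). In ESC the intervals of Eomes and Lhx1 and of the globin group thus did not overlap, and those of Foxa2 and of Eomes and Lhx1 did. The difference between viewpoints was not tested. Apart, Eomes had 2.94 (1.63 to 5.00) and Lhx1 3.27 (1.94 to 5.28) in ESC, and in erythrocytes 0.918 (0.289 to 2.24) and 2.70 (1.50 to 4.59). Of the 25 ESC reads of the globin group 18 came from Hba, 7 from Slc25a37 and none from Hbb. Their ESC intervals apart were 0.645 to 1.79, 0.622 to 3.47 and 0 to 2.32. Each overlapped that of Eomes, and those of Slc25a37 and Hbb also that of Lhx1. The contrast between the groups in ESC is thus not shown for each viewpoint.

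**Figure D5:**
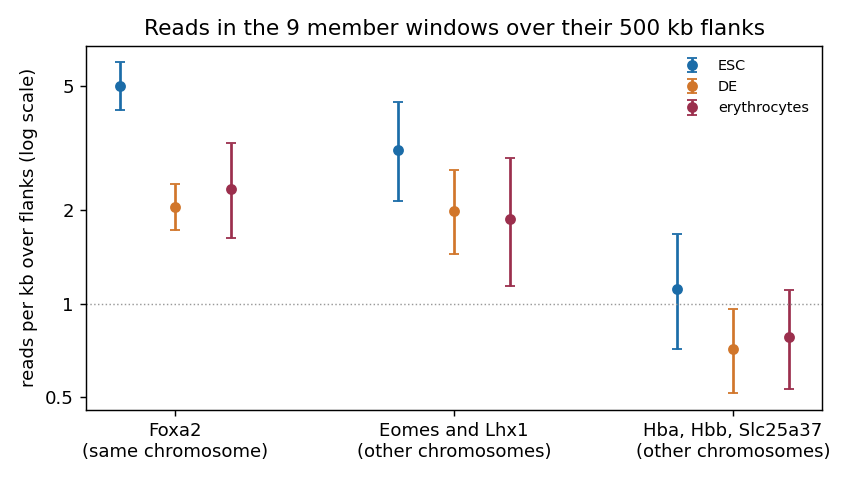
Reads per kb in the 9 windows over those in their 500 kb flanks (log scale) by viewpoint and cell type, 3 libraries pooled; bars are 95% exact intervals of counting error and the dotted line is equal density. In ESC the ratio was 5.01 from Foxa2, 3.12 from Eomes and Lhx1 and 1.12 from Hba, Hbb and Slc25a37.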

How the data were processed

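NG Capture-C signals of the Foxa2, Eomes, Lhx1, Hba, Hbb and Slc25a37 promoters were read from 3 tables of the promoter capture, 1 per cell type with 3 libraries each. Per the labels, reads were trimmed with Trim Galore and mapped with Bowtie to mm9. The authors deposited 1 signal value for each DpnII fragment and library, such that a column sums to 100000 interactions. The handling of duplicate reads is not given in the sources used here. Every value was a whole multiple of what 1 read is worth, within 0.05 of a read, so read numbers could be recovered. For 1 DE library that worth is near 1 at Hba, where whole reads cannot be told from scaled values, and its 11 reads in the windows are among the 45 behind the DE values of the globin and Slc25a37 promoters. The 9 genes and all lists were chosen with earlier results of these data known. The enhancer capture was not used.

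Gene windows came from GENCODE vM1 on NCBIM37 (mm9), and all 68959 fragments matched its DpnII digest. Of 40 further developmental regulators 39 were matched. A chi-square over 5 Mb bins between replicates merged no pair: the lowest ratio to degrees of freedom was 0.968, in DE, where no pair differed. The ratio was 1.15 to 1.97 in ESC, with a chi-square p of 0.000476 for libraries 1 and 2, and 2.31 to 6.20 in erythrocytes. ESC libraries 1 and 2 and the erythrocyte libraries thus differed by more than the counting error that intervals of pooled reads cover. Windows with at least 10 reads over the libraries compared were fitted with limma 3.58.1 on log2 of reads per 100000 far reads plus 20, so fold changes of low windows are understated. Fits held the 6 libraries of a comparison alone, with Benjamini-Hochberg adjustment of p-values. edgeR 4.0.16 (TMM) and DESeq2 1.42.0 on the recovered reads were alternatives. On simulated reads for DE against ESC (704 windows, 176 changed 4-fold), limma recovered 33.5% and edgeR 54.0%. For erythrocytes against ESC (289 windows, 72 changed) limma recovered 0% and edgeR 47.2%, and for erythrocytes against DE (671 windows, 167 changed) 31.7% and 44.3%. On the simulated reads for erythrocytes against ESC limma made no call, so no false share exists there. Of its calls 11.9% were false for DE against ESC and 8.62% for erythrocytes against DE. By edgeR 5.94, 5.56 and 7.50% of calls were false in the 3 comparisons. The simulated spread between libraries was fixed and not estimated from these data, so these shares need not hold for the real calls. Group differences in shares used two-sided exact permutation in Python 3.11.15 with scipy 1.17.1. Intervals of ratios are exact 95% Clopper-Pearson intervals.

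Named were the 9 genes, the 5 other regulators with most ESC reads per kb and at least 10 ESC reads, any past the limma threshold, and the 3 highest other windows. Other genes named were those in a count. Of the genes this rule names, 1 is not reported here. Alternatives were other denominators, windows, flanks, pseudocounts, filters, scalings and tools, each gene and library left out, and the replicate number as a block. Counting runs of neighbouring fragments once was added after seeing the data.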

Additional observations from a re-analysis of the deposited data

How the results depend on the processing

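Relative to ESC, the pooled share of the 9 windows stayed lower in DE and in erythrocytes, and lower in erythrocytes than in DE, in all 25 alternatives of each comparison. Leaving out single libraries moved DE over ESC between 0.247 and 0.284, erythrocytes over ESC between 0.170 and 0.195, and erythrocytes over DE between 0.646 and 0.731. In the order DE over ESC, erythrocytes over ESC and erythrocytes over DE, the ratios were 0.349, 0.325 and 0.932 over all chr2 reads, 0.317, 0.274 and 0.865 over all reads of the column, and 0.188, 0.0712 and 0.378 within 10 kb of the start sites. Neighbouring fragments with reads can come from 1 ligation product, and counted once per run they gave 0.314 for DE over ESC. The windows had 1.45, 1.24 and 1.40 reads per run in ESC, DE and erythrocytes, against 1.19, 1.25 and 1.24 over all far reads. Without Pax6 erythrocytes were at 0.275 of ESC and 0.920 of DE, without Meis2 at 0.0711 and 0.303, and without Wt1 at 0.811 of DE. The ratio to the flanks was 10.8, 2.80 and 1.58 in ESC, DE and erythrocytes at start sites, 3.49 in ESC and 1.66 in DE without Pax6, 9.99 in ESC and 1.32 in erythrocytes without Meis2, and 1.84 in DE with 25 kb added to each gene. The causes were not tested.

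Of 132 alternatives to the 9 tested comparisons of shares 118 kept the direction, and no exact p fell below 0.1. For the other developmental regulators erythrocytes turned to 0.0862 percentage points above ESC over all chr2 reads, and to -0.229 against DE at start sites. For the 9 windows seen from Eomes and Lhx1, erythrocytes minus DE ran from -0.257 to 0.0269 with single libraries left out. Seen from Hba, Hbb and Slc25a37, erythrocytes minus ESC turned to 0.00219 over all reads of the column, 0.00293 with each fragment counted once and 0.0197 by runs. Erythrocytes minus DE turned to 0.00476, 0.0830 and 0.0906 under these settings and to 0.0365 with 25 kb added, and ran from -0.0945 to 0.0582 with single libraries left out.

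Counts of limma calls depended on the setting. DE against ESC gave 33 windows with a pseudocount of 5, 3 with 80 and 4 each by edgeR and DESeq2, and 0 to 1 with a library left out. Erythrocytes against ESC gave 12 by DESeq2, 19 scaled to all chr2 reads, 57 with all 3 cell types and 2 to 26 with a library left out. Erythrocytes against DE gave 110 and 31 with these pseudocounts, 13 by edgeR, 2 by DESeq2, 0 scaled to chr2, 4 with all 3 cell types and 0 to 157 with a library left out. No pairing of libraries by replicate number was seen: deviations of 9 same-numbered pairs correlated between -0.0506 and 0.0347. Many windows had few reads per library, so counting error could hide a pairing here. With the replicate block the pooled ratios were 0.263, 0.181 and 0.689, the other regulators gave exact p of 0.25, 0.25 and 0.5, those in trans 0.25 to 1, and limma called 1, 0 and 16 windows. Under 10 reads a window, as at Lhx2, Lmx1b, Barhl1 and Gata3, changes were not detectable at this depth.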
